A study of Mus musculus with 8 samples.

Results

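The genes examined were 10 transcription factors of naive pluripotency, namely Pou5f1, Sox2, Nanog, Klf2, Klf4, Klf5, Esrrb, Tfcp2l1, Zfp42 and Tbx3. They were chosen by gene symbol and make up 10 of the 23420 gene symbols in the count tables. Every one of them was present in all libraries, and every one of them passed the filter of at least 1 count in any library, as did 19424 symbols in all.

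RNA-seq was performed on mouse embryonic stem cells (mESCs) with and without the gene for importin 13 (IPO13), a receptor that carries proteins both into and out of the nucleus, and with and without oxidative stress. The question was which transcripts depend on IPO13 in cells exposed to hydrogen peroxide. The data comprise 8 libraries in 4 groups of 2. WT-NS is untreated wild-type (IPO13+/+) cells, WT-ST is wild-type cells exposed to 125 µM H2O2 for 1 h and then left in fresh medium for 2 h, and KO-NS and KO-ST are IPO13-/- cells handled in the same 2 ways. All 4 groups were ESCs from blastocysts (day 5, before implantation) of a 129 x C57BL/6 background. All were grown without feeder cells on gelatin in DMEM with 12.5% FBS and 1000 U/ml LIF. Serum and LIF were thus present in controls and treated cells alike, and no inhibitor of differentiation other than LIF is named. How many independent lines or clones stood for each genotype is not given in the sources used here, so a difference between genotypes cannot be told apart from a difference between lines. Nothing states whether the replicates were separate cultures, so the p-values measure the spread between these libraries, which may be technical. That spread is pooled over all 4 groups and is not that of the 2 groups compared.

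Pluripotent cells of the early mouse embryo are held in their state by a small set of transcription factors that switch on each other's genes. Pou5f1 (Oct4) and Sox2 bind DNA as a pair at the core of this network, Nanog joins them, and Klf2, Klf4, Klf5, Esrrb, Tfcp2l1 and Tbx3 mark the naive state and keep it going downstream of LIF and other signals. Zfp42 (Rex1) is a widely used reporter of naive cells, and many of these genes are turned down as cells leave that state.

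Between 60397877 and 73789079 reads were counted on genes per library, and a count of 3, taken as the smallest count told from 0, corresponded to 0.0407 to 0.0497 CPM, the count scaled to the library total. Such floors cover counting error only. The factor with the fewest reads, Zfp42, lay far above this floor. Expression is given here as CPM after TMM scaling, in which each library total is corrected by a factor estimated from all genes. Ipo13 itself lay between 68.3 and 72.4 CPM in the 4 IPO13+/+ libraries and between 24.9 and 25.9 CPM in the 4 IPO13-/- libraries, so the libraries followed their labels and some Ipo13 transcript was still counted. The WT-NS replicates differed more than those of any other group, with a mean chi-square per gene of 15.0 between them against 2.26 in WT-ST, 4.58 in KO-NS and 6.59 in KO-ST. Markers of ESCs summed to 5766 to 6335 CPM in IPO13+/+ libraries and to 5003 to 5340 CPM in IPO13-/- libraries. Of the 10, 9 were above 1 CPM in mean, the exception being Fut4 at 0.274 CPM. That list includes Pou5f1, Sox2, Nanog and Zfp42, so its sum is no check apart from the factors. Summed CPM in IPO13+/+ and IPO13-/- libraries ran from 1.19 to 1.54 and from 1.90 to 3.08 for 6 two-cell-like markers, from 45.3 to 55.7 and from 24.6 to 33.4 for 7 trophectoderm markers, and from 20.6 to 24.3 and from 24.9 to 30.2 for 4 neuroectoderm markers. By the test used below, 2 ESC markers were higher and 5 lower in untreated IPO13-/- cells, and 1 was higher and 3 lower in treated ones. For the two-cell-like list it was 5 higher and 0 lower untreated, and 1 higher and 0 lower treated. For trophectoderm it was 2 higher and 2 lower, untreated and treated alike. For neuroectoderm it was 2 higher and 1 lower under each treatment. The shares of all genes were 18.7% higher and 19.4% lower untreated, and 19.1% and 17.5% treated. Krt8, at a mean of 25.1 CPM, was the highest trophectoderm marker. The 5 markers of primed cells summed to 327 to 332 CPM in WT-NS, 367 to 373 in KO-NS, 270.3 to 277.9 in WT-ST and 301.5 to 310.1 in KO-ST. Over all libraries, 6 mesendoderm markers summed to 9.50 to 20.9, 7 primitive endoderm markers to 128 to 204, and 7 fibroblast markers to 6.42 to 9.44. No listed marker was at 0 in all libraries. Fewer cells of a type and less RNA per cell cannot be told apart in bulk RNA, and the part of these shifts in the results that follow was not tested.

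Together the 10 factors took 0.539% of all counts in each of the WT-NS libraries, 0.524% and 0.519% in WT-ST, 0.512% and 0.514% in KO-NS, and 0.508% and 0.509% in KO-ST. After TMM scaling their sum was 5556 and 5541 CPM in WT-NS and 5241 and 5213 in WT-ST. It was 4993 and 5005 CPM in KO-NS and 5047 and 5074 in KO-ST. The sum was therefore highest in untreated wild-type cells on both scales. KO-ST lay below KO-NS by share and above it after TMM scaling. The individual genes differed in which way they moved.

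**Figure D1:**
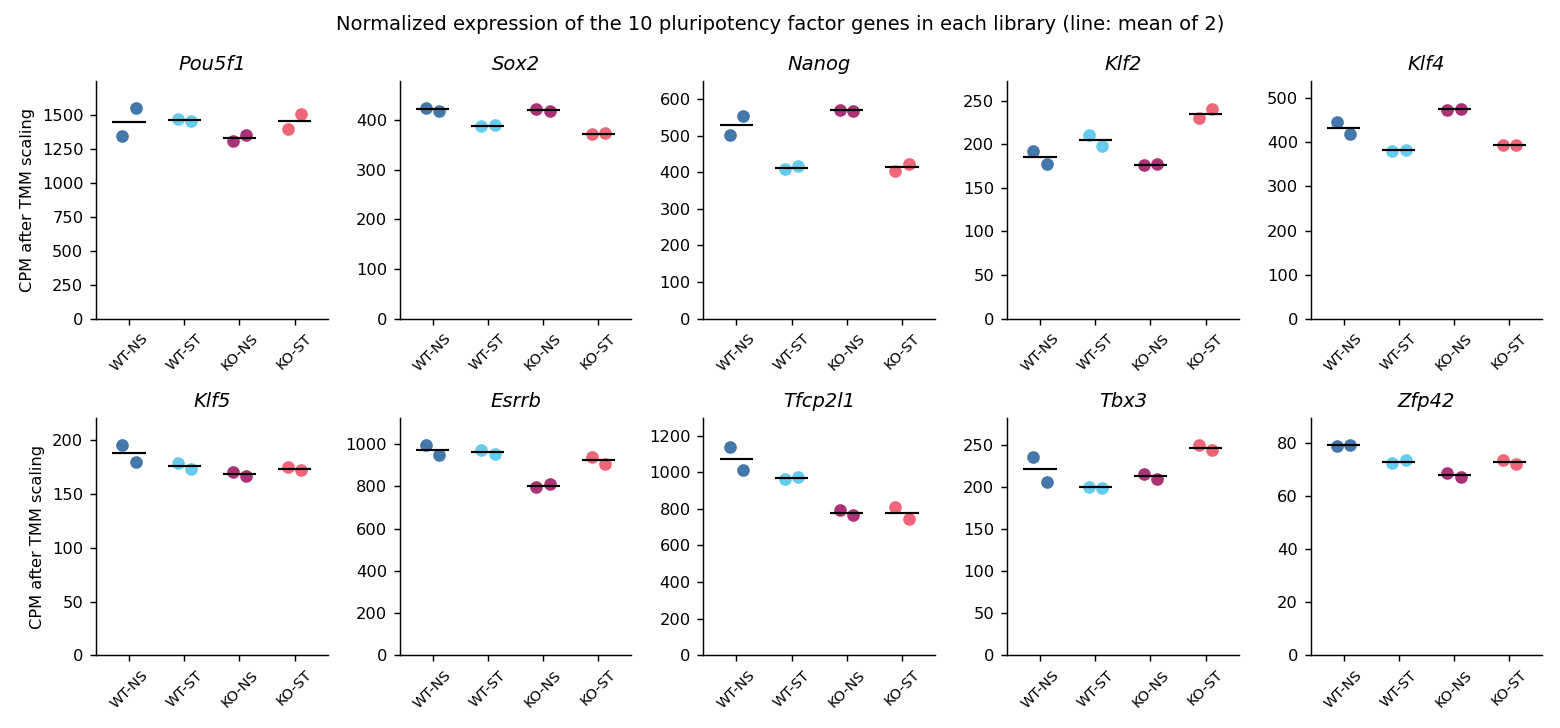
CPM after TMM scaling (y axis, from 0) of each factor in the 8 libraries, with 1 point per library and a line at the mean of the 2 libraries of WT-NS, WT-ST, KO-NS and KO-ST. Sox2, Nanog and Klf4 sat lower in treated than in untreated cells of both genotypes, and Klf2 sat higher. Tfcp2l1 stayed at or below 813 CPM in all IPO13-/- libraries against at least 964 CPM in all IPO13+/+ libraries.

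To compare genes with each other, CPM was divided by the length of all exons of the gene in kilobases (RPKM). Per length, Pou5f1 was the most abundant factor in every group, at 644 RPKM in WT-NS, 650.2 in WT-ST, 591 in KO-NS and 646 in KO-ST, which placed it at rank 43 to 45 among the 18050 genes with a known length. Nanog came next in WT-NS, at 235 RPKM, and in KO-NS, at 254 RPKM, while Sox2 and Nanog lay within a ratio of 1.03 of each other in WT-ST and of 1.02 in KO-ST. Esrrb (133 to 160.5 RPKM), Klf4 (125 to 156), Tfcp2l1 (82.5 to 114) and Klf2 (95.5 to 127) formed the middle of the order. Zfp42 (36.2 to 42.1 RPKM), Klf5 (32.4 to 36.1) and Tbx3 (30.2 to 37.2) were the lowest in every group. The neighbours in this order whose libraries overlapped were Klf5 and Tbx3 in WT-NS and KO-NS, and Nanog and Sox2 as well as Klf4 and Klf2 in KO-ST. These levels depend on the length assumed: with the longest transcript in place of all exons, Pou5f1 came to 1063 RPKM in WT-NS, and Esrrb, at 226 RPKM, passed Sox2, at 205.

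**Figure D2:**
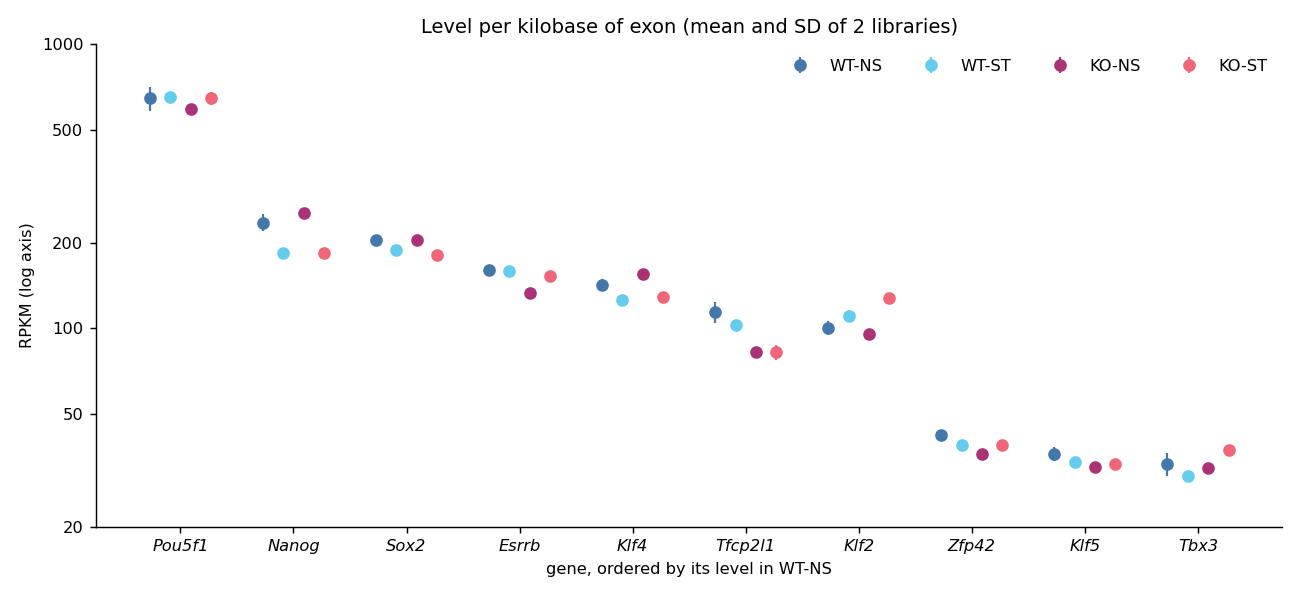
RPKM on a log axis for each factor, ordered by its level in WT-NS, with points at the mean and bars at the SD of the 2 libraries of each group. Pou5f1 stood alone at the top between 591 and 650.2 RPKM, and Zfp42, Klf5 and Tbx3 formed the lowest 3 in every group.

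Pou5f1 (chr17:35506018-35510772, plus strand, mm10) had 1347 and 1548 CPM in WT-NS, 1468 and 1455 in WT-ST, 1307 and 1348 in KO-NS, and 1397 and 1505 in KO-ST. The WT-NS libraries spanned nearly the whole range of the gene, and 1 of them lay level with KO-NS. Fold changes are given on the log2 scale with a standard error (SE) and a false discovery rate (FDR), which is the p-value of edgeR's quasi-likelihood test adjusted over all 19424 genes, and a difference counts as such at an FDR below 0.05. Pou5f1 was lower in KO-NS than in WT-NS by this test (log2 fold change -0.12 ± 0.05, FDR = 0.0336) and rose on treatment in IPO13-/- cells (0.13 ± 0.05, FDR = 0.0365). The genotype difference rested on the WT-NS libraries: it was -0.02 (FDR = 0.745) without WT-NS2 and -0.22 without WT-NS1, and of the 8 fits that left out 1 library each only the latter kept the call. The rise in IPO13-/- cells lost its call without WT-ST1, WT-ST2, KO-NS1, KO-NS2 or KO-ST2, with values of 0.09 to 0.17. In IPO13+/+ cells the treated minus untreated difference was 0.01, with a 95% interval of -0.08 to 0.11, and it passed the threshold only without WT-NS2 (0.12, FDR = 0.0239). The annotation places the antisense gene Gm19553 over 317 exonic bases of Pou5f1, and since no source states that strand was used in counting, reads from that stretch cannot be assigned to either gene.

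Sox2 (chr3:34650405-34652461, plus strand, a single exon) had 425 and 418 CPM in WT-NS, 387 and 389 in WT-ST, 422 and 418 in KO-NS, and 372 and 373 in KO-ST. Treated and untreated libraries did not overlap in either genotype. Sox2, the partner of Pou5f1 on DNA, fell on treatment in IPO13-/- cells (-0.17 ± 0.04, FDR = 0.000626) and in IPO13+/+ cells (-0.12 ± 0.04, FDR = 0.0176). The fall in IPO13+/+ cells lost its call when a library of WT-ST, KO-NS or KO-ST was left out (-0.12 to -0.09, FDR = 0.0899 to 0.147), whereas that in IPO13-/- cells was past the threshold in all 17 alternative fits. Untreated cells of the 2 genotypes had a Sox2 difference of -0.01 with a 95% interval of -0.08 to 0.07. The gene lies inside the noncoding gene Sox2ot on the same strand, with no shared exonic bases in the annotation.

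Nanog (chr6:122707489-122714633, plus strand) encodes a homeodomain factor that varies between single ESCs in serum. The 250 bases before its start are shown because Nanog had the largest response to H2O2 among the 10 genes in each genotype and because the window holds the adjoining octamer and SOX motifs, which POU and SOX factors bind. The sequence is that of RefSeq on GRCm38.p6, the assembly called mm10, at chr6:122707239-122707488 on the plus strand, with the octamer (ATGCAAA, here as its reverse complement TTTGCAT) and the SOX motif (ACAATG) in capitals.
Nanog upstream: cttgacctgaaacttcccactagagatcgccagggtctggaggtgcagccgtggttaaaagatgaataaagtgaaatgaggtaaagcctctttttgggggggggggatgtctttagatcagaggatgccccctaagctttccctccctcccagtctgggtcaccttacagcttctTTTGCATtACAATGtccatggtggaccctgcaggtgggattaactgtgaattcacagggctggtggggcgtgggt
The octamer begins 75 bases and the SOX motif 67 bases upstream of the start. Searched on both strands, the octamer was found in 4.1% and the SOX motif in 10.7% of 32851 windows of the same length, and among the 8 factors with a window the octamer also occurred in Sox2, 99 bases upstream, and Zfp42, 185 bases upstream. A match describes the letters and not binding.

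Nanog had 502 and 553 CPM in WT-NS, 407 and 416 in WT-ST, 571 and 567 in KO-NS, and 404 and 422 in KO-ST. All 4 untreated libraries lay above all 4 treated ones, and the treated libraries of the 2 genotypes overlapped. Nanog fell on treatment in IPO13+/+ cells (-0.36 ± 0.04, FDR = 1.86e-07), a change of -22.0%, and in IPO13-/- cells (-0.46 ± 0.04, FDR = 1.33e-09), a change of -27.4%. Both falls were past the threshold in all 17 alternatives. Untreated IPO13-/- cells had more Nanog than untreated IPO13+/+ cells (0.11 ± 0.04, FDR = 0.0415). This last difference lost its call without WT-NS1 (0.04, FDR = 0.489) and without WT-ST1, WT-ST2, KO-NS1 or KO-NS2 (0.11 to 0.12, FDR = 0.0691 to 0.153). The difference between the 2 responses was -0.10 (95% interval -0.23 to 0.02, FDR = 0.437), and passed only without WT-NS2 (-0.18, FDR = 0.0418). In treated cells the genotypes differed by 0.005, with an interval of -0.08 to 0.09.

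Klf4, Klf2 and Klf5 encode Krüppel-like factors, zinc finger proteins that bind GC-rich and CACCC sequences and overlap in function in ESCs. The sequences upstream of Klf4 and Klf2 are shown because these related genes moved in opposite directions under H2O2, and both windows hold GC boxes (GGGCGG or its reverse complement CCGCCC), which are in capitals. They come from RefSeq on GRCm38.p6. The Klf4 window is chr4:55532476-55532725 on the minus strand, and the Klf2 window, ended at the start of the annotated gene, is chr8:72318812-72319032 on the plus strand.
Klf4 upstream: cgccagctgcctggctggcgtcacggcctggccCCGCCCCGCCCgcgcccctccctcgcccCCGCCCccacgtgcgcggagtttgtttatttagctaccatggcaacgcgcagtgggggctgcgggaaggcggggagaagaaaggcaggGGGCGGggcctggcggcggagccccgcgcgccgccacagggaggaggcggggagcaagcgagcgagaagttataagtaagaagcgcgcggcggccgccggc
Klf2 upstream: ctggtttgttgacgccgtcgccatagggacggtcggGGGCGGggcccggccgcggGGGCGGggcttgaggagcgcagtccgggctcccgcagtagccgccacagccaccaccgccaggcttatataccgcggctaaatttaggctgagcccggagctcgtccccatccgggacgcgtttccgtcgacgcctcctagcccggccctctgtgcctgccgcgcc
Klf4 has 4 GC boxes, 217, 212, 189 and 101 bases upstream, of which the first 2 overlap by a base, and Klf2 has 2, at 214 and 195 bases upstream of the RefSeq start. At least 1 GC box was present in 32.7% of the 32851 windows. The same box also occurred upstream of Pou5f1, Sox2 and Zfp42. A CACCC box (CCACCC or its reverse complement) was found for Klf2 but not for Klf4. It lies 19 bases upstream of the RefSeq start, past the end of the printed stretch. This box was present in 28.1% of the windows, and also upstream of Pou5f1, Esrrb and Zfp42.

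Klf4 (chr4:55527143-55532466, minus strand) had 447 and 419 CPM in WT-NS, 381 and 383 in WT-ST, 473 and 477 in KO-NS, and 395 and 394 in KO-ST. Treated libraries lay below untreated ones in both genotypes, and IPO13-/- libraries above IPO13+/+ libraries of the same treatment. Klf4 fell on treatment in IPO13+/+ cells (-0.18 ± 0.04, FDR = 0.000781) and in IPO13-/- cells (-0.27 ± 0.04, FDR = 3.71e-06), and both falls held in all 17 alternatives. It was higher in KO-NS than in WT-NS (0.13 ± 0.04, FDR = 0.00705), a call lost without WT-NS2 (0.09, FDR = 0.0794) or KO-NS2 (0.13, FDR = 0.0614). The responses of the 2 genotypes differed by -0.09 (95% interval -0.20 to 0.02, FDR = 0.484), and treated cells of the 2 genotypes by 0.04 (interval -0.04 to 0.12).

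Klf2 (chr8:72319033-72321656, plus strand) had 192 and 178 CPM in WT-NS, 211 and 198 in WT-ST, 176 and 177 in KO-NS, and 230.3 and 240.1 in KO-ST. The KO-ST libraries were the highest of all and the KO-NS libraries the lowest. Klf2 rose on treatment in IPO13-/- cells (0.41 ± 0.04, FDR = 2.33e-08), an increase of 33.3%, and in IPO13+/+ cells (0.14 ± 0.04, FDR = 0.0164), an increase of 10.5%. It was higher in KO-ST than in WT-ST (0.20 ± 0.04, FDR = 0.000521). Of these, the rise in IPO13-/- cells and the difference between treated genotypes held in all 17 alternatives, while the rise in IPO13+/+ cells lost its call without WT-NS2 (0.09, FDR = 0.161) or WT-ST1 (0.10, FDR = 0.305). The rise was larger in IPO13-/- cells by an interaction of 0.27 ± 0.06 (FDR = 0.0136), which is the response in IPO13-/- cells minus that in IPO13+/+ cells. That call was lost without WT-ST2 (0.23, FDR = 0.199), KO-NS1 (0.24, FDR = 0.308), KO-NS2 (0.27, FDR = 0.146) or KO-ST2 (0.23, FDR = 0.141). Untreated, the genotypes differed by -0.07 (FDR = 0.249), past the threshold only without WT-NS2 (-0.12, FDR = 0.0256). Because Klf4 fell and Klf2 rose, the libraries of the 2 genes overlapped per length in KO-ST, at a ratio of 1.01.

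Klf5 (chr14:99298691-99315036, plus strand) had 196 and 180.0 CPM in WT-NS, 179 and 173 in WT-ST, 170.2 and 167 in KO-NS, and 175 and 172 in KO-ST. All values lay in a narrow band, with WT-NS at its top and KO-NS at its bottom. Klf5 was lower in KO-NS than in WT-NS (-0.16 ± 0.04, FDR = 0.00406), a call lost without WT-NS1 (-0.10, FDR = 0.0768), KO-NS1 (-0.15, FDR = 0.0637) or KO-NS2 (-0.14, FDR = 0.0879). Its response to H2O2 did not pass in IPO13+/+ cells (-0.10, 95% interval -0.18 to -0.01, FDR = 0.110) or in IPO13-/- cells (0.04, interval -0.04 to 0.13). Without WT-NS2, the response in IPO13+/+ cells (-0.16, FDR = 0.00522) and the interaction (0.20, FDR = 0.0271) passed.

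Esrrb (chr12:86361117-86521628, plus strand), an orphan nuclear receptor that is a target of Nanog, had 994 and 947 CPM in WT-NS, 971 and 951 in WT-ST, 798 and 809 in KO-NS, and 939 and 906 in KO-ST. The KO-NS libraries stood below all the others, which lay within a common band. Esrrb was lower in KO-NS than in WT-NS (-0.27 ± 0.04, FDR = 8.76e-07), a change of -17.2%, and rose on treatment in IPO13-/- cells (0.20 ± 0.04, FDR = 0.000110), an increase of 14.8%. Both calls held in all 17 alternatives. In IPO13+/+ cells the response was -0.01 (95% interval -0.09 to 0.06), and treated cells of the 2 genotypes differed by -0.06 (interval -0.13 to 0.02). The interaction was 0.21 ± 0.05 (FDR = 0.0204). It lost its call without any 1 library of WT-ST, KO-NS or KO-ST, at values of 0.18 to 0.23 and FDRs of 0.0753 to 0.339.

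Tfcp2l1 (chr1:118627945-118685168, plus strand) encodes a grainyhead-like factor that acts downstream of LIF and STAT3 and had 1139 and 1011 CPM in WT-NS, 964 and 974 in WT-ST, 792 and 765 in KO-NS, and 813 and 745 in KO-ST. All 4 IPO13-/- libraries lay below all 4 IPO13+/+ libraries. Tfcp2l1 was lower in KO-NS than in WT-NS (-0.47 ± 0.05, FDR = 4.58e-09), a change of -27.6%, and lower in KO-ST than in WT-ST (-0.31 ± 0.05, FDR = 3.12e-06), a change of -19.6%, in all 17 alternatives each. On treatment it fell in IPO13+/+ cells (-0.15 ± 0.05, FDR = 0.0156). This fall lost its call without WT-NS1 (-0.06, FDR = 0.334) and without either library of WT-ST or KO-NS (-0.16 to -0.12, FDR = 0.0851 to 0.142). In IPO13-/- cells the response was 0.0003 with an interval of -0.09 to 0.09. The interaction was 0.15 (FDR = 0.252), and passed without WT-NS2 (0.23, FDR = 0.00573). The small RNA gene Gm23497 shares 130 exonic bases with Tfcp2l1 on the same strand.

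Tbx3 (chr5:119670669-119684724, plus strand), a T-box factor, had 236 and 206 CPM in WT-NS, 200.4 and 199 in WT-ST, 216 and 209.9 in KO-NS, and 249.7 and 244 in KO-ST. The KO-ST libraries were the highest of all, and the KO-NS libraries lay between those of WT-NS. Tbx3 rose on treatment in IPO13-/- cells (0.21 ± 0.05, FDR = 0.000959), an increase of 15.8%, and was higher in KO-ST than in WT-ST (0.30 ± 0.05, FDR = 8.24e-06), in all 17 alternatives each. In IPO13+/+ cells it fell (-0.15 ± 0.05, FDR = 0.0231), but of the 8 fits with a library left out only that without WT-NS2 kept the call, and without WT-NS1 the value was -0.05 (FDR = 0.507) against -0.14 to -0.12 elsewhere, or -0.15 without WT-ST1. The interaction of 0.36 ± 0.07 (FDR = 0.00200) was the largest among the 10 genes. It was lost without KO-NS1 (0.36, FDR = 0.139) or KO-NS2 (0.33, FDR = 0.113), and held in the other 14 of 16 alternatives. The untreated genotypes differed by -0.05 (FDR = 0.423), and by -0.15 without WT-NS2 (FDR = 0.00466). The antisense gene Tbx3os1 overlaps 115 exonic bases.

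Zfp42 (chr8:43295063-43306980, minus strand), a zinc finger gene, had 79.0 and 79.4 CPM in WT-NS, 72.4 and 73.5 in WT-ST, 68.7 and 67.4 in KO-NS, and 73.8 and 72.1 in KO-ST. The treated libraries of both genotypes lay together between those of WT-NS and KO-NS. Zfp42 was lower in KO-NS than in WT-NS (-0.22 ± 0.04, FDR = 0.000155), a change of -14.1%, in all 17 alternatives. It fell on treatment in IPO13+/+ cells (-0.12 ± 0.04, FDR = 0.0414), a call that was lost in each of the 8 fits with a library left out (-0.13 to -0.09, FDR = 0.0571 to 0.249). Its response in IPO13-/- cells was 0.10 (95% interval 0.01 to 0.19, FDR = 0.0851), and passed without WT-NS1 or WT-NS2 (0.10 each, FDR = 0.0468 and 0.0467). The interaction of 0.22 ± 0.06 (FDR = 0.0484) lost its call without any 1 library of WT-ST, KO-NS or KO-ST (0.19 to 0.23, FDR = 0.138 to 0.281). Treated cells of the 2 genotypes differed by -0.0005 with an interval of -0.09 to 0.09.

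**Figure D3:**
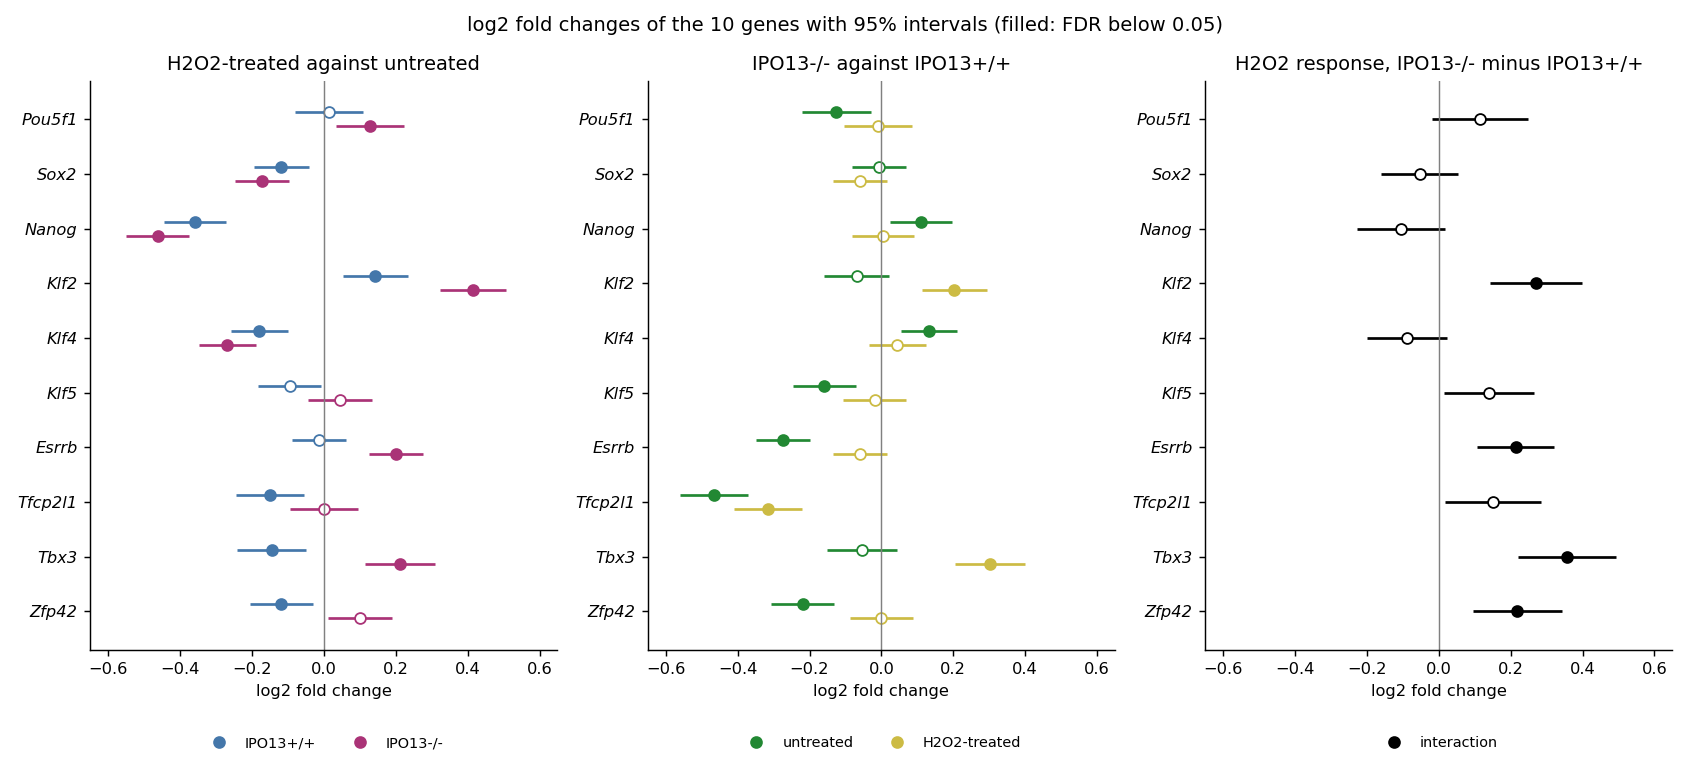
log2 fold changes (x axis) of the 10 factors with 95% intervals. The left panel gives H2O2-treated against untreated cells of each genotype, the middle panel IPO13-/- against IPO13+/+ cells under each treatment, and the right panel the difference between the 2 responses, with filled points at an FDR below 0.05. Sox2, Nanog and Klf4 lay left of 0 and Klf2 right of 0 in both genotypes. Tbx3, Klf2, Zfp42 and Esrrb had interactions of 0.21 to 0.36.

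Among untreated cells, 2 of the 10 factors (Nanog and Klf4) were higher and 5 (Pou5f1, Klf5, Esrrb, Tfcp2l1 and Zfp42) were lower in IPO13-/- than in IPO13+/+ cells. Of all genes tested, 18.7% were higher and 19.4% lower in this comparison, and 4.71% passed with a change of at least 2-fold, which no factor did. Such shares, here and below, include genes with far fewer reads than the factors, in which a difference passes less easily. The median log2 fold change of the factors was -0.10, against -0.03 for genes with at least 10 CPM, and the median size of change was 0.13 against 0.14. Only the differences of Esrrb, Tfcp2l1 and Zfp42 were past the threshold in all 17 alternatives. With library totals in place of TMM factors, 2 factors were higher and 3 lower, and 67.1% of all calls were in the higher direction against 49% with TMM.

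After H2O2 in IPO13+/+ cells, 1 factor (Klf2) was higher and 6 (Sox2, Nanog, Klf4, Tfcp2l1, Tbx3 and Zfp42) were lower. The corresponding shares of all genes were 11.5% and 13.8%, and 2.9% changed at least 2-fold. The median over the factors was -0.12 against -0.05 for genes with at least 10 CPM. Nanog and Klf4 were the 2 whose call held in all 17 alternatives, and with library totals 1 factor was higher and 2 were lower, while 60.5% of all calls were in the higher direction against 45.4% with TMM. This comparison shares the WT-NS libraries with the one before it.

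After H2O2 in IPO13-/- cells, 4 factors (Pou5f1, Klf2, Esrrb and Tbx3) were higher and 3 (Sox2, Nanog and Klf4) were lower, where 14.9% of all genes were higher, 14.4% lower and 2.89% changed at least 2-fold. The median over the factors was 0.07 against -0.01 for genes with at least 10 CPM, and the median size of change 0.19 against 0.11. All of these calls but that of Pou5f1 held in the 17 alternatives. This comparison shares the KO-NS libraries with that between untreated genotypes, in which Pou5f1 and Esrrb were lower and Nanog and Klf4 higher. The interaction below is built from the same libraries as the other comparisons.

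Among treated cells, 2 factors (Klf2 and Tbx3) were higher and 1 (Tfcp2l1) was lower in IPO13-/- cells, and all 3 calls held in the 17 alternatives. Of all genes, 19.1% were higher, 17.5% lower, and 4.56% differed at least 2-fold. The median size of change over the factors was 0.05 against 0.13 for genes with at least 10 CPM. Esrrb and Zfp42, which differed between untreated genotypes, lay at -0.06 and -0.0005 here.

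The 2 responses differed in 4 factors, namely Tbx3, Klf2, Zfp42 and Esrrb, each with the higher value in IPO13-/- cells. With a lower value it was 0 by edgeR, by limma-voom and by DESeq2, and 0 at an unadjusted p under 0.05. Since few of all genes passed in that direction, a count of 0 among 10 factors says little. The estimates of Nanog (-0.10), Klf4 (-0.09) and Sox2 (-0.05) were below 0, and that of Nanog was -0.18 without WT-NS2. Interactions past the threshold were found for 2.01% of all genes in the higher and 0.705% in the lower direction, and for 0.144% with a size of at least 2-fold. The share among genes with as many reads as the factors was not computed. The median interaction over the factors was 0.15 against 0.04 for genes with at least 10 CPM. Of all calls of this kind 74% were in the higher direction with TMM and 30.8% with library totals, under which 1 factor, Tbx3, was called. No factor kept its interaction in all 16 alternatives: Tbx3 held in 14, Klf2 in 9, Esrrb in 6 and Zfp42 in 3.

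The wider pluripotency network was examined through 51 other genes, comprising 9 of LIF signalling, 22 further transcription and chromatin factors, and 20 effectors and markers of ESCs. In untreated cells 12 of the 51 were higher and 21 lower in IPO13-/- cells, where 18.7% and 19.4% of all genes passed in these directions. The median log2 fold change of the 51 was -0.06, against -0.03 for genes with at least 10 CPM, and it became 0.03, with 14 higher and 18 lower, with library totals. Tfap2c, an AP-2 factor, had 44.1 and 43.3 CPM in WT-NS and 78.6 and 79.9 in KO-NS (0.86 ± 0.05, FDR = 2.23e-14). Tcl1, a cofactor of the kinase AKT, had 112 and 108 CPM in WT-NS and 70.4 and 71.5 in KO-NS (-0.64 ± 0.04, FDR = 2.55e-12), and Cdh1, the gene of E-cadherin, had 643 and 617 against 412 and 403 (-0.63 ± 0.04, FDR = 2.59e-13). In treated cells 13 were higher and 22 lower, beside 19.1% and 17.5% of all genes, led by Tfap2c (0.73 ± 0.05), the proliferation factor Myc (-0.66 ± 0.05) and Tet2, which encodes an enzyme that oxidises methylcytosine (-0.65 ± 0.06).

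On treatment, 3 of the 51 network genes rose and 28 fell in IPO13+/+ cells, and 8 rose and 26 fell in IPO13-/- cells, with medians of -0.14 and -0.10. Of all genes 11.5% rose and 13.8% fell in IPO13+/+ cells and 14.9% rose and 14.4% fell in IPO13-/- cells, and the medians for genes with at least 10 CPM were -0.05 and -0.01. Prdm14, a PR domain repressor that holds back differentiation signals, was the network gene that passed with at least a 2-fold change. It had 42.7 and 43.3 CPM in WT-NS, 18.4 and 18.4 in WT-ST, 48.9 and 51.1 in KO-NS, and 14.3 and 16.1 in KO-ST. The fall was -1.22 ± 0.05 (FDR = 7.41e-16) in IPO13+/+ cells and -1.71 ± 0.06 (FDR = 7.55e-19) in IPO13-/- cells, larger in each than that of any of the 10 factors. Foxd3, a forkhead repressor, fell by 0.78 and by 0.70 on the log2 scale, from 47.5 and 51.9 CPM to 29.6 and 28.1 in IPO13+/+ cells and from 50.9 and 52.3 to 31.3 and 32.2 in IPO13-/- cells. Lif, the cytokine itself, rose from 5.68 and 5.78 CPM to 11.1 and 10.9 in IPO13+/+ cells (0.94 ± 0.07) and from 4.70 and 4.69 to 9.44 and 8.96 in IPO13-/- cells (0.97 ± 0.08), in a medium that already held LIF. Of the 9 genes of LIF signalling 2 rose and 3 fell in IPO13+/+ cells, and of the 20 effectors 13 fell and the other 7 did not pass. The effector median was -0.16 in IPO13+/+ and -0.09 in IPO13-/- cells, in which 2 rose and 10 fell.

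The interaction passed for 3 of the 51 network genes, 2 with the higher and 1 with the lower value in IPO13-/- cells, beside 2.01% and 0.705% of all genes. Nr0b1 (Dax1), an orphan nuclear receptor that partners Esrrb and Pou5f1, had 396 and 392 CPM in WT-NS, 376 and 367 in WT-ST, 312 and 322 in KO-NS, and 380.0 and 380.2 in KO-ST, an interaction of 0.35 ± 0.05 (FDR = 0.000191). Its pattern of a low level in KO-NS alone was that seen for Esrrb. Prdm14 fell further in IPO13-/- cells (-0.49 ± 0.08, FDR = 0.000342), and Tcl1 had 0.24 ± 0.06 (FDR = 0.0299). Those of Nr0b1 and Prdm14 held in all 16 alternatives, while that of Tcl1 held in 6 and was lost without any 1 library of WT-ST, KO-NS or KO-ST, with an FDR of up to 0.331.

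**Figure D4:**
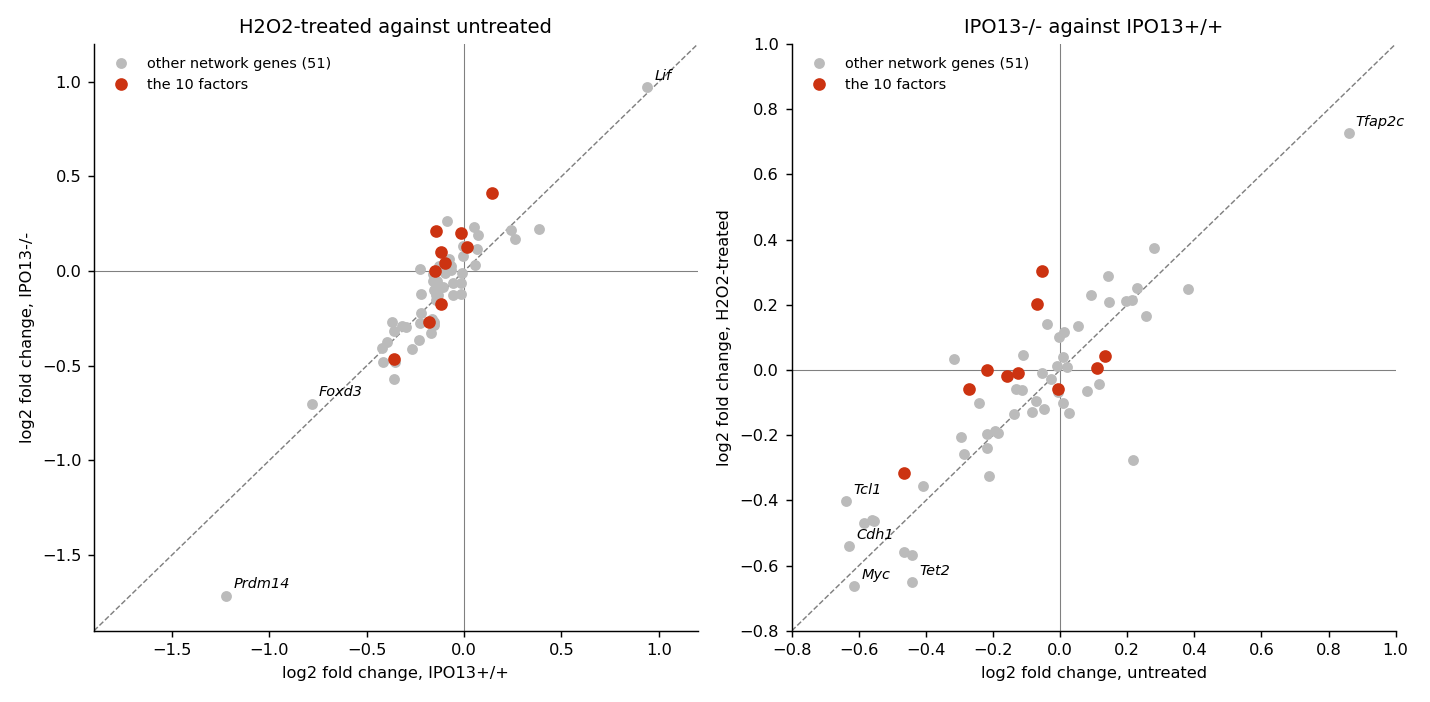
log2 fold changes of the 51 network genes (grey) and the 10 factors (red). The left panel sets the response to H2O2 in IPO13-/- cells (y axis) against that in IPO13+/+ cells (x axis), the right panel the genotype difference in treated cells (y axis) against that in untreated cells (x axis), and the dashed line marks equal values. Prdm14 lay farthest from 0 on the left, at -1.22 and -1.71, and Tfap2c on the right, at 0.86 and 0.73.

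Of the 14 other Krüppel-like factor genes, 3 were higher and 7 lower in untreated IPO13-/- cells, led by Klf15 (-0.50 ± 0.10), Klf6 (-0.47 ± 0.04) and Klf8 (-0.42 ± 0.05), where 18.7% of all genes were higher and 19.4% lower. On treatment 2 rose and 3 fell in IPO13+/+ cells (11.5% and 13.8% of all genes), and 3 rose and 2 fell in IPO13-/- cells (14.9% and 14.4%). Like Klf2, Klf6 and Klf10, both known as genes that respond early to stimuli, rose in both genotypes. Klf6 went from 95.9 and 92.1 CPM to 129 and 131 in IPO13+/+ cells (0.47 ± 0.04) and from 69.3 and 66.4 to 124 and 129 in IPO13-/- cells (0.90 ± 0.04). Klf10 went from 109.7 and 105 CPM to 138 and 139 in IPO13+/+ cells (0.37 ± 0.04) and from 89.4 and 87.3 to 158 and 152 in IPO13-/- cells (0.81 ± 0.04). The interactions of Klf6 (0.43 ± 0.06, FDR = 7.67e-05) and Klf10 (0.45 ± 0.06, FDR = 3.74e-05) held in all 16 alternatives, which that of Klf2 did not. As with Klf4, levels fell in both genotypes for Klf11 (-0.56 ± 0.06 and -0.29 ± 0.06) and Klf8 (-0.45 ± 0.05 and -0.41 ± 0.05). In treated cells 3 were higher and 1 lower in IPO13-/- cells, beside 19.1% and 17.5% of all genes, with Klf11 at 0.44 ± 0.06, Klf8 at -0.39 ± 0.05 and Klf10 at 0.17 ± 0.04.

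Markers of other cell types that differed at least 2-fold in a comparison were at low levels beside the factors. Fgf5 had a mean of 0.784 CPM, and Zscan4c, the highest of the two-cell-like markers, 0.587 CPM. Among the 6 mesendoderm markers, 4 stayed below 1 CPM in every library. In untreated IPO13-/- cells T (1.25), Pax6 (1.40), Zscan4c (1.06), Zscan4d (1.04) and Zfp352 (1.06) were higher and Krt8 (-1.25) and Col1a1 (-1.07) were lower, as log2 fold changes. Tcstv3 passed as well, at a mean of 0.0547 CPM, with an interval of 0.46 to 4.16 and in 11 of 16 alternatives, being lost with DESeq2, without a filter and without WT-NS1, WT-NS2 or KO-NS1. In treated IPO13-/- cells Fgf5 (1.07), T (1.11) and Pax6 (1.13) were higher and Sox1 (-1.22) and Col1a1 (-1.41) lower than in treated IPO13+/+ cells. On treatment Gsc fell in IPO13+/+ cells (-1.05), and in IPO13-/- cells Gsc (-1.03), Mixl1 (-1.11) and Pax6 (-1.26) fell and Fgf5 rose (1.08). Of 17 alternatives, T held in 15 in untreated cells (lost without WT-NS2 or KO-NS1) and Zscan4c and Zscan4d in 16 each (lost without KO-NS2). Zfp352 held in 14 (lost with DESeq2 and without WT-NS1 or KO-NS1), as did the fall of Mixl1 (lost with DESeq2 and without KO-NS1 or KO-ST1). The difference of T in treated cells held in 10, and was lost with limma-voom, DESeq2 and without WT-ST1, WT-ST2, KO-NS1, KO-NS2 or KO-ST2 (FDR of up to 0.233). Apart from that of Tcstv3, the other calls named here held in all 17. The part of these markers in the differences of the factors was not tested.

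Finally, the gene whose level followed a factor most closely over the 8 libraries was sought among 9027 genes by Pearson's correlation of log2 CPM. The best match was Fam136a for Nanog (r = 0.996), Uri1 for Klf4 (0.995), Zmym3 for Sox2 (0.997), Atp6v0d1 for Klf2 (0.979), Ano6 for Klf5 (0.993), Nedd4 for Tfcp2l1 (0.996), Socs2 for Tbx3 (0.994), Eed for Zfp42 (0.988) and Rpl15 for Pou5f1 (0.983). With 8 points in 4 groups that share their libraries and so many genes to choose from, such values describe these libraries only.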

How the data were processed

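The authors sequenced TruSeq mRNA libraries, and the submitters' processing notes name bcl2fastq, STAR 2.3.1, HTSeq, limma and the mm10 build. The labels and the Methods differ on the sequencer and the number of lanes, and strandedness of counting is not given in the sources used here. The authors deposited raw read counts per gene symbol for each library. They also deposited CPM values, each count divided by its library total, which were checked against the counts (largest difference 0.0005) and not tested. Of the symbol rows, 2 were repeats.

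Counts were analysed in R 4.3.3 with edgeR 4.0.16: TMM factors, 1 quasi-likelihood fit of all 8 libraries with a coefficient per group, and Benjamini-Hochberg adjustment over 19424 genes. The common dispersion was 0.00113. SEs were derived from the F statistic, as the size of the log2 fold change over its square root. With 2 libraries a side, an exact permutation test cannot go below 0.333. The procedure was tested on simulated data. The alternatives were limma-voom (limma 3.58.1), DESeq2 1.42.0, relative log expression factors, library totals, filterByExpr (15191 genes), at least 10 counts (17081 genes), no filter, a replicate block, only the libraries compared, and each library left out. A fit that left a library out assumed that the lone library of its group varied like the others. Leaving out a WT-NS library also removed the gap between those replicates from the spread used in every comparison. Calls gained in such fits are therefore not separate evidence. Positions and exon lengths came from GENCODE M21, and upstream sequences from RefSeq, which held 8 of the 10 factors. All 10 factors are named. Of the network genes, the Krüppel-like factor genes and the cell type markers, those past 2-fold are named, and of the first 2 lists also the 3 largest differences in each comparison. The members and lists were chosen with earlier results of these data known. The gene that followed Esrrb most closely is not reported here.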

Additional observations from a re-analysis of the deposited data

Results flagged for a closer look

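The response to H2O2 differed between the genotypes, by edgeR's test of the interaction, for 4 of the 10 factors. Of all genes, 2.01% had a higher and 0.705% a lower response in IPO13-/- cells, a background that includes genes with far fewer reads than the factors. The difference is given as the log2 fold change in IPO13-/- cells minus that in IPO13+/+ cells. It was 0.36 for Tbx3, 0.27 for Klf2, 0.22 for Zfp42 and 0.21 for Esrrb. Tbx3 rose in IPO13-/- cells, while its fall in IPO13+/+ cells held in 5 of 17 alternatives and was -0.05 without WT-NS1. No factor kept its call in all 16 alternatives: it held in 14 for Tbx3, 9 for Klf2, 6 for Esrrb and 3 for Zfp42, and with library totals 1 factor, Tbx3, was called. Among the 51 other network genes it was 0.35 for Nr0b1, -0.49 for Prdm14 and 0.24 for Tcl1, of which the last held in 6 alternatives and the others in all 16. Among the 14 other Krüppel-like factor genes it was 0.43 for Klf6 and 0.45 for Klf10, in all 16 alternatives each.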

How the results depend on the processing

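Of 840 alternative log2 fold changes of the factors, 672 kept their direction and side of the threshold, 117 lost their call, 14 gained one and 37 changed sign. The sign changes were all of small differences that had not passed, and the cause was not tested. With library totals without factors, the value became 0.08 for Sox2, 0.01 for Klf2 and 0.03 for Tbx3 (KO-NS against WT-NS), 0.03 for Esrrb (WT-ST against WT-NS), -0.03 for Tfcp2l1 (KO-ST against KO-NS) and 0.01 for Zfp42 (KO-ST against WT-ST). With filterByExpr, and with only the libraries compared, Sox2 became 0.01 and Esrrb 0.01 in those comparisons. DESeq2 and relative log expression factors gave -0.01 for Nanog (KO-ST against WT-ST) and -0.001 for Tfcp2l1, as did limma-voom for the latter. With 1 library left out, values ranged from -0.02 to 0.01 for Sox2 and -0.15 to 0.05 for Tbx3 (KO-NS against WT-NS), from -0.08 to 0.12 for Pou5f1 and -0.05 to 0.02 for Esrrb (WT-ST against WT-NS), from -0.05 to 0.07 for Tfcp2l1 (KO-ST against KO-NS), and, for KO-ST against WT-ST, from -0.07 to 0.04 for Pou5f1, -0.03 to 0.04 for Nanog, -0.04 to 0.003 for Klf5 and -0.02 to 0.02 for Zfp42.

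Counts of factors moved as follows. A 2-fold limit left 0 in each direction of every comparison, by edgeR. For KO-NS against WT-NS, limma-voom, DESeq2, a minimum of 10 counts and no filter gave 1 higher, and library totals 3 lower. For WT-ST against WT-NS, the libraries compared alone gave 0 higher and 2 lower, DESeq2 3 lower, and library totals and filterByExpr 2 lower each. For the interaction, limma-voom, library totals and filterByExpr gave 1 higher and DESeq2 2. Leaving out 1 library gave 0 to 2 higher and 3 to 6 lower (KO-NS against WT-NS), 0 to 1 higher and 2 to 6 lower (WT-ST against WT-NS), and 0 to 6 higher and 0 to 1 lower (interaction), with the lowest of the last without KO-NS1 or KO-NS2. Of the network genes, 17 were lower with only the libraries of WT-ST and WT-NS. Their interaction gave 1 higher with limma-voom, DESeq2, library totals and filterByExpr, 2 lower with library totals, and 1 to 4 in each direction with a library left out, which also gave 5 to 9 higher for KO-ST against KO-NS (5 without KO-NS1).

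Replicate numbers are shared by the groups. The deviations of same-numbered libraries correlated between -0.09 and 0.64 over the 6 pairs of groups. The 3 above 0.1 were those among WT-NS, KO-NS and KO-ST (0.35 to 0.64), and the 3 others all involved WT-ST. The main fit did not pair the libraries, and whether those groups share an effect of replicate number was not tested. A replicate block changed Tfcp2l1 to -0.0007 (KO-ST against KO-NS), lost no call of a factor and added 3, those of Klf5 in WT-ST against WT-NS (FDR = 0.0384), Zfp42 in KO-ST against KO-NS (FDR = 0.0475) and the Tfcp2l1 interaction (FDR = 0.0461), and gave 4 network genes higher and 3 lower in the interaction. The SE of a factor's log2 fold change was 0.04 to 0.05 between groups and 0.05 to 0.07 for the interaction, which limits how small a difference could pass.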
